A study of Mus musculus with 20 samples.

Results

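The 10 genes described here belong to the transforming growth factor beta (TGF-beta) family and its regulators, which carry signals between the oocyte and the somatic cells of the follicle. Their transcripts were measured in whole mouse ovaries that lack the oocyte transcription factor gene Figla or Lhx8. They were chosen by name and comprise 10 of the 49585 genes counted in each library. They are the ligand genes Gdf9, Bmp15, Bmp6 and Bmp2, the receptor genes Bmpr1b and Amhr2, the inhibin and activin subunit genes Inha, Inhba and Inhbb, and the activin antagonist gene Fst. The groups were Figla-/- ovaries and Figla+/- control ovaries at embryonic day 18.5 (E18.5), with 4 libraries each, the same genotypes at the day of birth (P0), with 3 libraries each, and Lhx8-/- ovaries and Lhx8+/- control ovaries at P0, with 3 libraries each. All mice were of the B6D2F1 strain. Where the genotype field names a control it gives a heterozygote, although the names of the Lhx8 libraries give WT. That field conflicts with the library name for some Figla libraries and all Lhx8 libraries, as set out below. Genotypes are thus given by group and were not read from each library's own field. A knockout of this kind lacks the gene in every cell, and whole ovaries mix oocytes with somatic cells. Nothing in the labels ties a library to an animal or litter. The tests therefore rest on the variation among the deposited samples, part of which may be technical.

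In the growing follicle, GDF9 and BMP15 are secreted by the oocyte and act on the granulosa cells around it through type 2 and type 1 serine-threonine kinase receptors, which phosphorylate SMAD proteins. Granulosa cells send signals of the same family back: activins are dimers of inhibin beta subunits, inhibins pair a beta subunit with the alpha subunit and oppose activin, and follistatin binds activins and holds them away from their receptors. Around birth the mouse ovary forms its primordial follicles, and FIGLA, a basic helix-loop-helix protein, and LHX8, a LIM homeodomain protein, are both needed in oocytes at this stage.

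Total counts ranged from 5583392 to 13408022 in the 14 libraries of the Figla set and from 8297204 to 9978350 in the 6 libraries of the Lhx8 set. The labels conflict: the title and genotype fields disagree with the library name for 6 of 14 Figla libraries and for 6 of 6 Lhx8 libraries, and libraries were grouped by library name. Figla was at 0.183 to 0.637 CPM (read counts relative to each library's depth, scaled by TMM) in the 3 P0 libraries named as Figla knockouts, against 32.8 to 41.5 CPM in controls. Lhx8 was at 17.0 to 30.5 CPM in the 3 libraries named as Lhx8 knockouts, against 90.4 to 102.9 CPM in controls, and the part of Lhx8 that was deleted is not given in the sources used here. These P0 levels go against the titles of the conflicting P0 libraries. At E18.5, libraries 1 and 2 of the knockouts, and likewise libraries 1 and 2 of the controls, were near-identical and were summed as replicate 1-2, which leaves 3 samples in every group. Figla at E18.5 was at 0.828, 1.26 and 1.53 CPM in knockouts, against 21.9, 3.78 and 26.7 CPM in controls. Titles call E18.5 control replicates 3 and 4 knockouts and knockout libraries 1 and 2 controls. Control replicate 4 held the highest Figla of the E18.5 controls, and knockout replicate 1-2 the lowest of the knockouts. E18.5 control replicate 3 stood apart: its Figla lay nearer to the knockouts than to the other controls. Lhx8 was at 6.18 CPM in it, against 94.3 and 118.5 CPM in the other E18.5 controls. The oocyte transcription factor gene Nobox was at 2.06 CPM in it, against 73.9 and 108.4 CPM. Lhx8 was also lowest in knockout replicate 3 among the E18.5 knockouts, at 6.61 CPM, against 17.8 and 43.9 CPM, so low Lhx8 was shared by both samples of that number. These values do not settle the genotype of E18.5 control replicate 3, and the members tested at E18.5 are also given without it.

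Per kilobase of exon, the levels of the 10 genes in the Figla set ran from Amhr2 at the top to Bmp15 at the bottom. At P0, Amhr2 averaged 146.4 ± 11.98 CPM per kb in Figla knockouts and 116.5 ± 14.7 CPM per kb in controls (SD, n = 3 each), above every other member in every sample. Fst and Inha came next in knockouts, at 67.4 ± 14.7 and 65.9 ± 10.2 CPM per kb with overlapping samples. In controls Inha, at 49.3 ± 3.82 CPM per kb, lay above Fst, at 37.0 ± 9.23 CPM per kb, in every sample. Inhbb, Bmp6, Bmp2 and Bmpr1b followed between 12.6 and 3.80 CPM per kb in knockouts and between 11.2 and 3.97 CPM per kb in controls. Inhba averaged 1.36 ± 0.189 CPM per kb in knockouts and 0.992 ± 0.117 CPM per kb in controls. Gdf9 stood at rank 9 of 10 in P0 knockouts, where its samples overlapped those of Inhba, and at rank 6 in P0 controls, where they overlapped those of Bmp6 above and Bmp2 below. At E18.5, Gdf9 was at rank 9 in both knockouts and controls. Bmp15 was lowest in all 4 Figla groups, at 0.100 ± 0.0554 CPM per kb in P0 knockouts and 0.583 ± 0.136 CPM per kb in P0 controls.

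**Figure D1:**
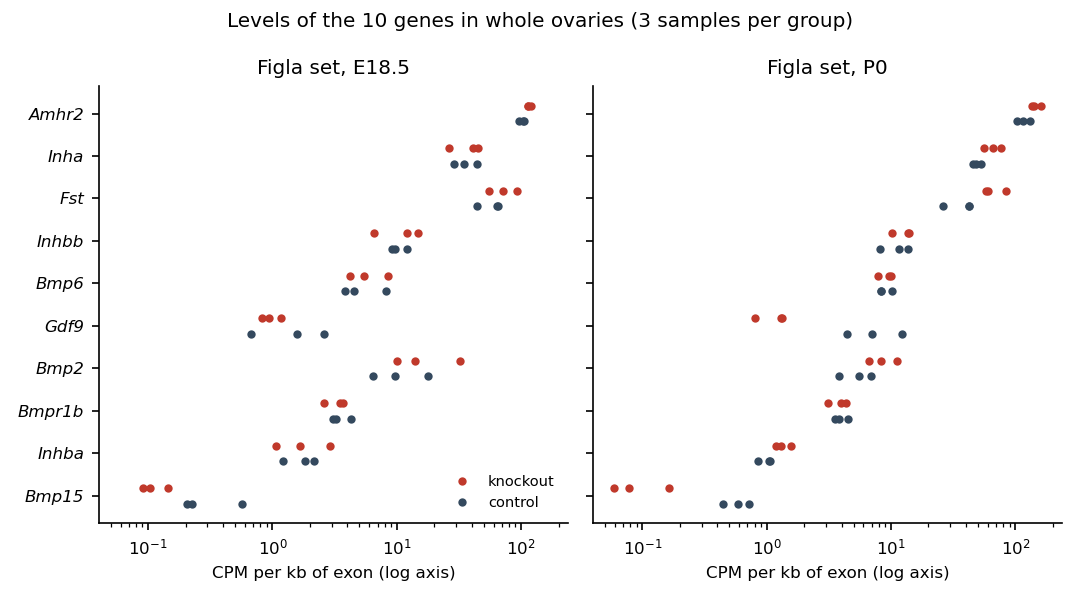
Level of each of the 10 genes in CPM per kb of exon (log axis) in the Figla set at E18.5 (left) and P0 (right), 1 point per sample, with knockout ovaries above control ovaries in each row. Amhr2 lies at the high end of the range and Bmp15 at the low end. At P0 the knockout points of Gdf9 and Bmp15 lie to the left of the control points, at lower levels.

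Of the members tested, Gdf9 had the largest difference in both knockouts at P0. Gdf9 (ENSMUSG00000018238, GRCm38 chromosome 11, 53431023 to 53437904, plus strand), which is required for follicles to grow past the primary stage in mice, was at 1.64, 2.63 and 2.70 CPM in P0 Figla knockouts, against 8.91, 14.3 and 24.8 CPM in their controls. All 3 knockout samples lay below all 3 controls, and the controls differed among themselves more than the knockouts did. The log2 fold change was -2.78 (SE 0.38, 95% interval -3.62 to -1.94), or 6.85-fold lower, with an edgeR quasi-likelihood adjusted p of 0.000754. In P0 Lhx8 knockouts Gdf9 was at 1.37, 1.84 and 3.85 CPM, against 34.1, 42.9 and 38.6 CPM in their controls. The groups did not overlap here either, and Gdf9 fell by 4.06 on the log2 scale (SE 0.32, 95% interval -4.77 to -3.35), or 16.7-fold, with an edgeR adjusted p of 5.74e-05. The 2 knockouts were measured with different library kits and their effects were not compared in a model. In bulk samples such as these, fewer oocytes and less RNA per oocyte cannot be told apart.

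At E18.5, Gdf9 was low in both groups, at 2.39, 1.89 and 1.67 CPM in Figla knockouts, against 3.20, 1.37 and 5.26 CPM in controls. The groups overlapped, and the log2 fold change had a 95% interval of -1.78 to 0.40. Without E18.5 control replicate 3, which held the lowest Gdf9 value of the controls, the log2 fold change was -1.01 with an edgeR adjusted p of 0.789. The other E18.5 members had log2 fold changes without that sample of 0.045 for Bmp6, 0.65 for Bmp2, -0.17 for Bmpr1b, 0.25 for Amhr2, -0.04 for Inha, 0.32 for Inhba, 0.28 for Inhbb and 0.45 for Fst, and none was called. Summed germ cell markers were at 432.9 to 587.8 CPM in E18.5 knockouts, against 437.5 to 1530 CPM in E18.5 controls, with the lowest control sum in replicate 3, and their part in the Gdf9 values was not tested.

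Bmp15 (ENSMUSG00000023279, chromosome X, 6314107 to 6320721, minus strand), the X-linked partner of GDF9, was counted by few reads. P0 Figla knockouts had 2, 3 and 5 counts (0.183, 0.239 and 0.500 CPM), against 16, 19 and 28 counts in controls (1.36, 1.80 and 2.19 CPM). No knockout sample reached any control, and Bmp15 fell by 2.53 on the log2 scale (SE 0.47, 95% interval -3.57 to -1.49; edgeR adjusted p = 0.00489). Bmp15 passed the filter on low counts only through the controls, since 0 of 3 knockout samples and 3 of 3 controls reached its minimum of 0.859 CPM, so a gene kept in this way had to differ. At E18.5 it had 9, 2 and 2 counts in knockouts, against 11, 4 and 14 counts in controls, and was not tested. The scaled ratio of control over knockout counts was 2.43, with a 95% counting interval of 1.22 to 5.08 that covers counting error only. In the Lhx8 set it had 0, 0 and 0 counts in knockouts, against 3, 8 and 7 counts in controls. With a floor of 3 counts over the knockout group, Bmp15 was at least 6.04-fold lower there, and the bound was 5.07 to 7.66 with 1 control left out at a time.

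The Bmp15 promoter is shown because FIGLA-type proteins are known to bind E-boxes and LIM homeodomain proteins AT-rich cores, and because this gene was lower in both knockouts. The 250 bases before its start are given 5′ to 3′ on the gene's strand, the minus strand (RefSeq, GRCm38.p6, chrX:6320725-6320974), with matches to the searched motifs in capitals.
Bmp15: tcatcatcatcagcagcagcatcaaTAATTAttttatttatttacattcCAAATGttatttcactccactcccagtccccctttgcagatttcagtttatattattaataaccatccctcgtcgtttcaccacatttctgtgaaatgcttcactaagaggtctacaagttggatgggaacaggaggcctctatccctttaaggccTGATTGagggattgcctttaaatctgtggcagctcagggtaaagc
Both strands were searched. The E-box CANNTG matched once, as CAAATG starting 201 bases before the start, and 66.2% of the 32851 windows of this length in the RefSeq table hold a match. TAATTA matched at 225 bases before the start and is found in 4.84% of windows, TGATTG matched at 45 bases before the start and is found in 12.7%, and TAATTG had no match and is found in 7.17%. None of the matches overlapped another. Of the 10 genes, 7 have a window in the table, and Gdf9, Bmp2 and Fst have none. The E-box was found in 4 of the 7, namely Amhr2, Bmp15, Bmp6 and Bmpr1b. TAATTG was found in 3, namely Amhr2, Bmpr1b and Inhba, TGATTG in 2, namely Bmp15 and Inhba, and TAATTA in Bmp15. A match describes letters and is no evidence of binding.

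Bmp6 (ENSMUSG00000039004, chromosome 13, 38345716 to 38499728, plus strand), a ligand gene expressed by oocytes and granulosa cells, did not share this pattern. It was at 24.0, 19.0 and 23.3 CPM in P0 Figla knockouts, against 20.2, 20.2 and 24.5 CPM in controls. The groups overlapped and the 95% interval of the log2 fold change was -0.30 to 0.37, which excludes a change as large as that of Gdf9 or Bmp15. At E18.5 it was at 10.1, 13.1 and 20.5 CPM in knockouts, against 9.19, 11.0 and 19.8 CPM in controls, again with overlap. In the Lhx8 set Bmp6 had 4, 4 and 0 counts in knockouts, against 0, 5 and 8 counts in controls, too few to test. The gene model of Bmp6 in GENCODE M21 ends 574 bases further 3′ than the model used for counting, and the kit of the Lhx8 set reads transcript ends. The same gap is 4410 bases for Inhba, which was counted in every Lhx8 sample. Whether these gaps bear on the counts was not tested.

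Germ cell markers were lower in both knockouts at P0 as well. The summed level of the 10 germ cell and oocyte markers was 763 to 849 CPM in Figla knockouts, against 2001 to 2882 CPM in controls, and 835 to 1401 CPM in Lhx8 knockouts, against 2036 to 2505 CPM in controls. Of these 10 genes, 9 fell in Figla knockouts and 7 in Lhx8 knockouts, where Lhx8 itself is on the list, and none rose in either (edgeR). Zp3, a gene of the oocyte's zona pellucida, was at 0 in all 3 P0 Figla knockouts. The part of these markers in the lower Gdf9 and Bmp15 was not tested. Ddx4, a helicase gene of germ cells at all stages seen here, was at 77.1, 81.9 and 90.7 CPM in P0 Figla knockouts, against 155.8, 140.3 and 151.2 CPM in controls, a log2 fold change of -0.84 (SE 0.10; edgeR adjusted p = 0.000388). It fell by 0.94 on the log2 scale in Lhx8 knockouts (SE 0.16; edgeR adjusted p = 0.00559).

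Gdf9 was also set against Ddx4 within each sample, both in CPM per kb. At P0 the ratio of Gdf9 over Ddx4 was 0.0299, 0.0450 and 0.0418 in Figla knockouts, against 0.0803, 0.143 and 0.230 in controls, 3.61-fold lower. In the Lhx8 set it was 0.0675, 0.0641 and 0.173 in knockouts, against 0.760, 0.862 and 0.925 in controls, 9.31-fold lower. The groups did not overlap in either set. The exact two-sided permutation p was 0.1 in both, the smallest that this permutation test can give for 3 samples against 3, so it cannot reach 0.05 here. At E18.5 the ratio was 0.0498, 0.0347 and 0.0372 in knockouts, against 0.0337, 0.0218 and 0.0659 in controls (exact permutation p = 0.8), and the values overlapped. Without E18.5 control replicate 3 the log2 difference was -0.23, in place of 0.14. Leaving out 1 sample at a time gave log2 differences of -2.24 to -1.48 in the Figla set at P0 and of -3.69 to -2.97 in the Lhx8 set. Ddx4 reads do not count germ cells, and the ratio between the 2 kits was not compared.

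**Figure D2:**
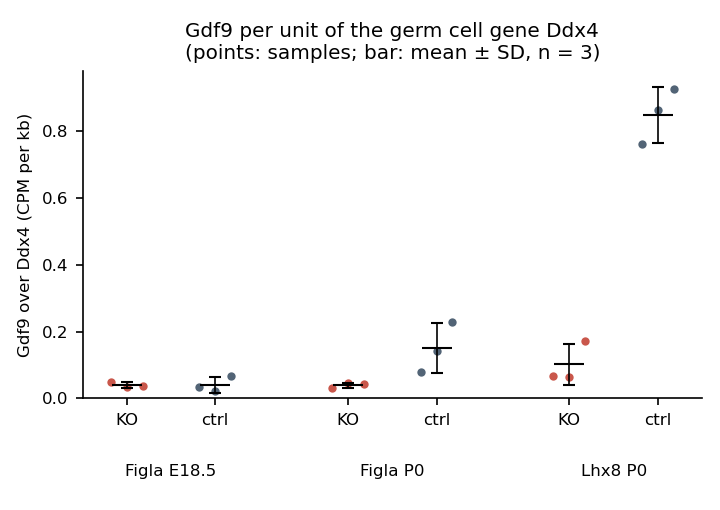
Ratio of Gdf9 over Ddx4, both in CPM per kb of exon, in knockout (KO) and control (ctrl) ovaries of the 3 comparisons, with 1 point per sample and bars for mean ± SD (n = 3). At P0 the highest Figla knockout lies at 0.0450 and the lowest control at 0.0803, and in the Lhx8 set at 0.173 and 0.760, while the E18.5 groups overlap.

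Bmp2 (ENSMUSG00000027358, chromosome 2, 133552159 to 133562885, plus strand), a ligand gene of ovarian somatic cells, had higher means in the knockouts of all 3 comparisons without passing the test in any. It was at 39.6, 23.5 and 29.3 CPM in P0 Figla knockouts, against 19.6, 24.5 and 13.7 CPM in controls, with 1 knockout sample within the control range (log2 fold change 0.68, SE 0.24; edgeR adjusted p = 0.074). In P0 Lhx8 knockouts it was at 63.9, 25.8 and 51.7 CPM, against 24.4, 26.6 and 23.0 CPM in controls (log2 fold change 0.93, SE 0.28; edgeR adjusted p = 0.0594). Knockout replicate 2 lay within the controls in both sets. DESeq2 called Bmp2 in both, with adjusted p of 0.0241 in the Figla set and 0.0122 in the Lhx8 set. Without 1 sample, edgeR called it when Figla P0 control replicate 2 was left out (adjusted p = 0.034) and when Lhx8 knockout replicate 2 was left out (adjusted p = 0.00281). With no filter on low counts, edgeR called Bmp2 in the Figla set at P0 (adjusted p = 0.0016) and in the Lhx8 set (adjusted p = 0.000113). In the Figla set at P0 it was also called with the replicate number as a block, a fit chosen after seeing the data. At E18.5 Bmp2 spread widely, over 114.9, 49.4 and 35.6 CPM in knockouts, against 63.4, 34.5 and 23.1 CPM in controls.

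With all samples and no replicate block, the receptor genes passed edgeR's test in no comparison. Bmpr1b (ENSMUSG00000052430, chromosome 3, 141837136 to 142169425, minus strand), which encodes a type 1 receptor for BMPs, was at 26.0, 23.5 and 18.5 CPM in P0 Figla knockouts, against 21.3, 27.0 and 22.6 CPM in controls. The values overlapped, and the 95% interval of the log2 fold change, -0.42 to 0.31, bounds any difference to well under that of Gdf9. It was at 11.6, 5.93 and 7.07 CPM in P0 Lhx8 knockouts, against 5.75, 4.65 and 11.1 CPM in controls, with an interval of -0.64 to 1.04. Amhr2 (ENSMUSG00000023047, chromosome 15, 102445367 to 102454630, plus strand), the type 2 receptor gene for anti-Müllerian hormone (AMH), was at 320.1, 274.2 and 285.1 CPM in P0 Figla knockouts, against 229.4, 264.3 and 205.9 CPM in controls. All knockouts lay above all controls, by a log2 fold change of 0.33 (SE 0.12, 95% interval 0.08 to 0.59), with an edgeR adjusted p of 0.0772. DESeq2 called it (adjusted p = 0.048), and edgeR did without P0 control replicate 2 (adjusted p = 0.0318). With the replicate number as a block, a fit chosen after seeing the data, edgeR called Amhr2 too. In the Lhx8 set Amhr2 was at 250.2, 283.7 and 304.3 CPM in knockouts, against 202.9, 223.5 and 295.5 CPM in controls, and the groups overlapped. Amh, the gene of its ligand, had 94 counts in P0 Figla knockouts and 83 counts in controls over 3 samples each. Its log2 fold change there was 0.26 (95% interval -0.48 to 1.00), and it was not called. In the Lhx8 set Amh was near the limit of counting, with 2 counts in knockouts and 0 counts in controls.

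Among the inhibin and activin subunits, Inha was closest to a call. Inha (ENSMUSG00000032968, chromosome 1, 75507077 to 75510366, plus strand), the alpha subunit that makes inhibins, was at 112.2, 82.1 and 97.2 CPM in P0 Figla knockouts, against 71.6, 78.8 and 67.6 CPM in controls. The groups did not overlap, but the log2 fold change of 0.42 (SE 0.13, 95% interval 0.13 to 0.71) had an edgeR adjusted p of 0.0507. It passed with RLE scaling (0.0487), with no filter on low counts (0.0215), with DESeq2 (0.0254) and without P0 knockout replicate 2 (0.0344), as adjusted p. It also passed with the replicate number as a block, a fit chosen after seeing the data. In P0 Lhx8 knockouts Inha was at 45.5, 76.0 and 69.2 CPM, against 69.3, 66.8 and 61.3 CPM in controls, with overlap and a 95% interval of -0.46 to 0.36.

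Inhbb (ENSMUSG00000037035, chromosome 1, 119415465 to 119422248, minus strand), the beta B subunit, was at 43.1, 59.1 and 58.2 CPM in P0 Figla knockouts, against 34.6, 49.1 and 58.7 CPM in controls (95% interval of the log2 fold change -0.25 to 0.60). In the Lhx8 set it was at 8.29, 8.89 and 6.20 CPM in knockouts, against 7.21, 11.0 and 6.97 CPM in controls (95% interval -0.71 to 0.51). Inhba (ENSMUSG00000041324, chromosome 13, 16011851 to 16027211, plus strand), the beta A subunit, was at 2.37, 3.11 and 2.60 CPM in P0 Figla knockouts, against 1.70, 2.09 and 2.11 CPM in controls. These samples did not overlap, yet the 95% interval of the log2 fold change, -0.19 to 1.11, spans 0, with 91 counts in knockouts and 69 counts in controls over 3 samples each. Inhba was at 3.90, 4.40 and 3.97 CPM in P0 Lhx8 knockouts, against 3.97, 3.70 and 1.80 CPM in controls (95% interval -0.45 to 1.19), and the groups overlapped. The beta B transcript was the more abundant one per kilobase in the Figla set: Inhbb over Inhba was 8.45 to 10.4 in P0 knockouts and 9.49 to 12.9 in P0 controls, and the ranges overlapped. In the Lhx8 set, whose kit reads transcript ends, the ratio per kilobase was 0.727 to 0.989 in knockouts and 0.845 to 1.80 in controls. In CPM not divided by length, Inhbb lay above Inhba in every Lhx8 sample, so the order there depended on that division. The Inhba model used for counting lacks 4410 bases at its 3′ end that GENCODE M21 holds, and their part in these ratios was not tested.

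The receptor and subunit genes at E18.5 gave no call. Amhr2 was at 225.2, 240.1 and 229.2 CPM in Figla knockouts, against 191.6, 212.3 and 206.8 CPM in controls, above them in every sample but by a log2 fold change of only 0.20 (95% interval -0.09 to 0.49). Inha was at 66.7, 38.7 and 60.0 CPM in knockouts, against 51.0, 42.8 and 65.3 CPM in controls, with overlap (95% interval -0.47 to 0.63). Bmpr1b, Inhba and Inhbb overlapped as well, with 95% intervals of the log2 fold change of -0.57 to 0.39, -0.92 to 1.15 and -0.56 to 0.81.

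Fst (ENSMUSG00000021765, chromosome 13, 114452262 to 114458730, minus strand), which encodes follistatin, was the member that rose. It was at 197.0, 135.0 and 140.3 CPM in P0 Figla knockouts, against 98.7, 99.2 and 61.6 CPM in controls, and no knockout sample lay within the controls. Its fold was 1.82 (95% interval of the log2 fold change 0.43 to 1.30), with an edgeR adjusted p of 0.0146. Without P0 knockout replicate 1, the highest sample, the log2 fold change was 0.67 and the call was lost (edgeR adjusted p = 0.0517). It was also lost in 1 model of all Figla samples, at 0.86 (edgeR adjusted p = 0.0502). In P0 Lhx8 knockouts Fst was at 42.9, 15.8 and 14.4 CPM, against 8.26, 10.3 and 10.0 CPM in controls. All knockouts lay above all controls and the log2 fold change was 1.36 (SE 0.39, 95% interval 0.51 to 2.22), with an edgeR adjusted p of 0.0504. Knockout replicate 1 again held the highest value, and without it the log2 fold change was 0.67 (edgeR adjusted p = 0.0821). Without Lhx8 knockout replicate 2 or 3 it was called, with log2 fold changes of 1.59 and 1.63 and edgeR adjusted p of 0.038 and 0.0245. With all samples, DESeq2 called it (adjusted p = 0.00376), and so did edgeR with no filter on low counts (adjusted p = 5.67e-06). At E18.5 Fst was at 217.6, 165.7 and 128.1 CPM in knockouts, against 152.7, 148.3 and 102.6 CPM in controls, and the groups overlapped.

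Fst was also set against Amhr2, a gene of the somatic cells, per kilobase within each sample. At P0 Fst over Amhr2 was 0.421 to 0.527 in Figla knockouts and 0.256 to 0.369 in controls, and the samples did not overlap, but at E18.5 they did, at 0.479 to 0.828 in knockouts and 0.425 to 0.683 in controls. The ratio was 0.0405 to 0.147 in P0 Lhx8 knockouts and 0.0290 to 0.0393 in their controls, without overlap. Differences in this ratio were not tested.

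**Figure D3:**
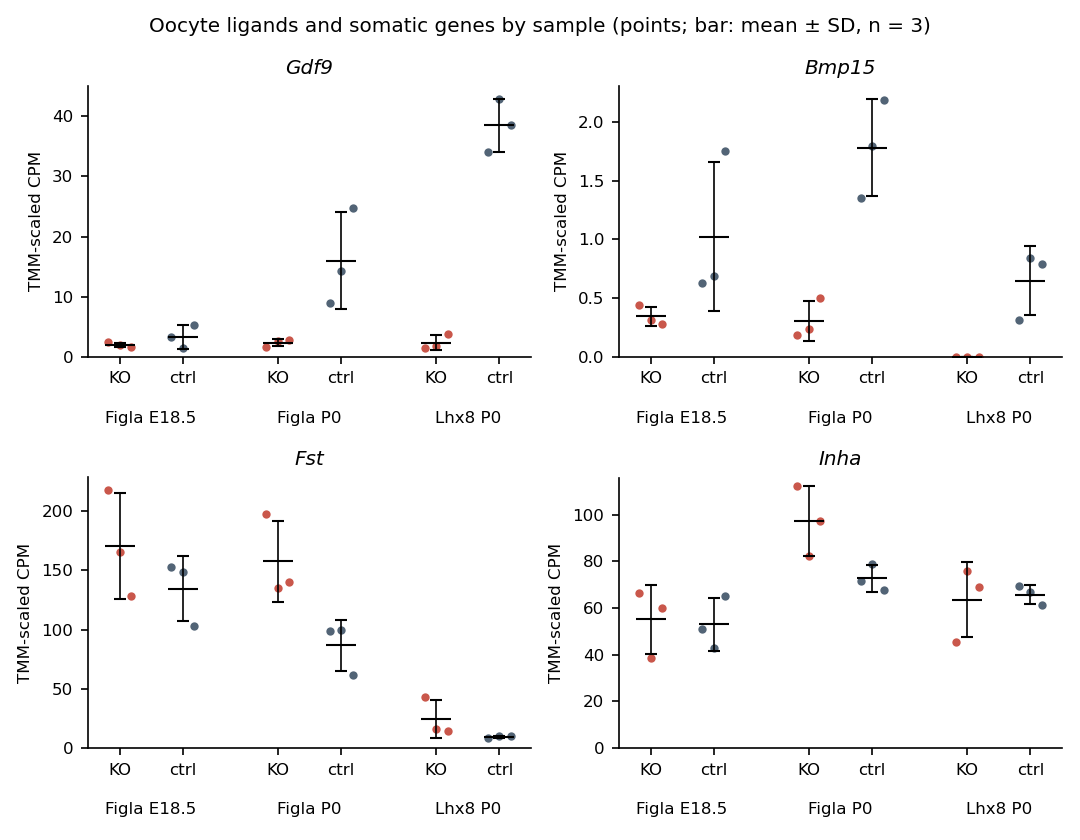
TMM-scaled CPM of Gdf9, Bmp15, Fst and Inha in knockout (KO) and control (ctrl) ovaries of the Figla set at E18.5 and P0 and of the Lhx8 set at P0, with 1 point per sample and bars for mean ± SD (n = 3). At P0 the Figla knockouts lie below their controls for Gdf9 and Bmp15 and above them for Fst and Inha. Levels should be read within a set, since the sets were made with different kits.

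Counted over the 10 members, Figla knockouts at P0 had 1 member that rose and 2 that fell of 10 tested, where edgeR called 16% of all 17321 genes. Bmp15, among the members that fell, passed the filter only through the controls, so this count is a description and nothing is read from it. By unadjusted p under 0.05 there were 6, where 5340 of the 17321 genes passed. DESeq2 called 6, namely Gdf9, Bmp15, Fst, Inha, Bmp2 and Amhr2, and 3193 genes in all. The median log2 fold change of the members was 0.25, against 0.018 over all genes tested. Lhx8 knockouts had 1 called member, Gdf9, of 8 tested, where edgeR called 10.4% of 15274 genes. There were 3 by unadjusted p under 0.05, where 4242 of the 15274 genes passed. DESeq2 called 3, which added Bmp2 and Fst, and 2158 genes in all. The median was 0.21, against 0.048 over all genes. At E18.5, 0 of 9 tested members were called by edgeR, where it called 0.0062% of 16131 genes. An unadjusted p under 0.05 held for 0 members and 607 genes in all, and DESeq2 called 0 members and 78 genes. Without E18.5 control replicate 3 the count of members stayed at 0, while the count over all genes was 89 in place of 1. Over all genes, the Figla P0 count was 1605 without knockout replicate 2 and 1423 without knockout replicate 3, in place of 2767. Members called were then 4 and 3, and 5 without control replicate 2. The Lhx8 count over all genes was 733, 630 and 911 without control replicate 1, 2 and 3, in place of 1582, and members called were 1 in each of these fits, 3 without knockout replicate 2 and 2 without knockout replicate 3.

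**Figure D4:**
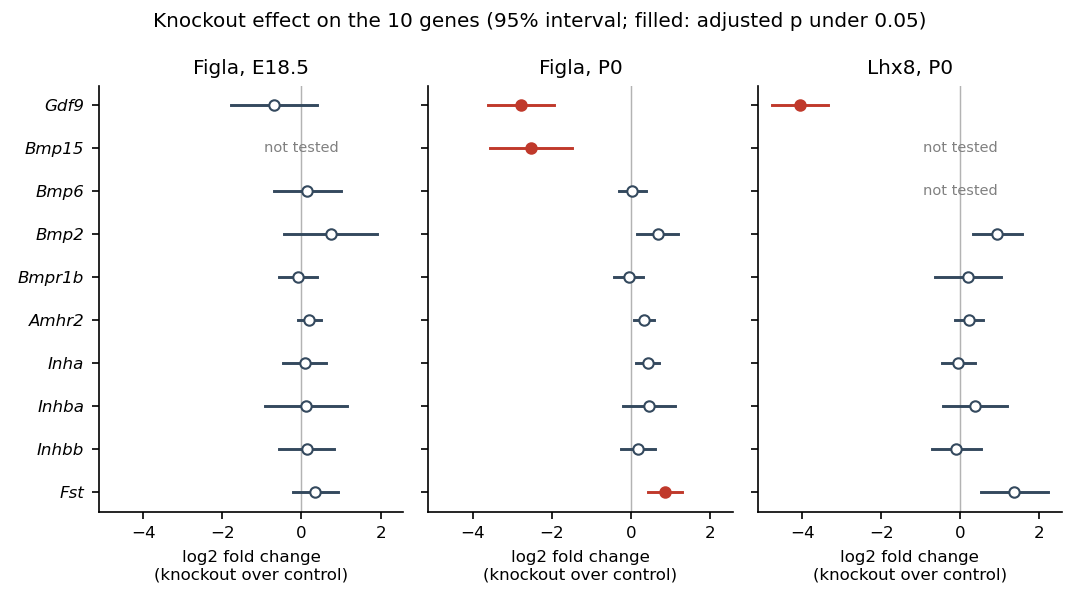
Log2 fold change of knockout over control (point) with its 95% interval (line) for the 10 genes in the 3 comparisons, filled where the edgeR adjusted p was under 0.05. Gdf9 lies at -2.78 and -4.06 in the Figla and Lhx8 knockouts at P0, Bmp15 at -2.53 and Fst at 0.87 in the Figla knockout, and the E18.5 points are all open.

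Between E18.5 and P0, the mean of Gdf9 differed more in controls than in Figla knockouts, though the difference between the genotypes did not pass the test. In Figla-set controls it averaged 16.0 ± 8.07 CPM at P0 and 3.28 ± 1.95 CPM at E18.5, and in Figla knockouts 2.32 ± 0.591 CPM at P0 and 1.98 ± 0.366 CPM at E18.5 (SD, n = 3 each). In controls the log2 fold change of P0 over E18.5 was 2.26 (SE 0.44, 95% interval 1.31 to 3.21), with an edgeR adjusted p of 0.0606, while DESeq2 called it (0.000158). In knockouts it was 0.19 (SE 0.48, 95% interval -0.84 to 1.22). The difference between the knockout effects at the 2 ages was -2.07 on the log2 scale (SE 0.64, 95% interval -3.46 to -0.67), and by edgeR it did not pass after adjustment over all genes (adjusted p = 0.913, and 0.0744 to 1 over the alternatives). Without E18.5 control replicate 3 the change with age in controls was 1.95 (edgeR adjusted p = 0.165). It passed without E18.5 control replicate 4 (2.71, adjusted p = 0.0267) and without E18.5 knockout replicate 1-2 (2.26, adjusted p = 0.0449).

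Bmp2 and Fst had lower means at P0 than at E18.5 in controls, with log2 fold changes of -1.08 (SE 0.44; edgeR adjusted p = 0.168) and -0.64 (SE 0.24; edgeR adjusted p = 0.148). Bmp2 did so in knockouts too, at -1.13 (SE 0.43; edgeR adjusted p = 0.322). Inha had higher means at P0, by 0.81 in knockouts (SE 0.21; edgeR adjusted p = 0.172) and by 0.45 in controls (SE 0.21; edgeR adjusted p = 0.21). In these age comparisons edgeR called 0 of 10 members in controls (0% of 18379 genes) and 0 of 10 in knockouts (0.00544% of genes). In controls 5 members had an unadjusted p under 0.05, against 4254 of all genes, and DESeq2 called Gdf9 among 1616 genes. In knockouts 3 members did, against 2319 of all genes, and DESeq2 called Inha among 309 genes. For the difference between the knockout effects at the 2 ages edgeR called 0 of 10 (0% of genes). There 1 member had an unadjusted p under 0.05, against 977 of all genes, and DESeq2 called 0 members and 3 genes. The 2 age comparisons and the knockout comparisons share samples.

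Other genes of the pathway were taken from lists of 26 ligands, 14 receptors, 13 antagonists, 8 Smads and 10 targets. In P0 Figla knockouts 13 of the 49 tested rose and 1 fell, or 28.6% against 16% of all genes, with a median log2 fold change of 0.29. Over all genes, 887 rose and 1880 fell. In 1 model of all Figla samples, 4 pathway genes were called in place of 14. The 5 receptors that rose of 14 tested included Acvrl1 (0.70, SE 0.15) and Eng (0.63, SE 0.13), a receptor and co-receptor of endothelium, Rgma (0.68, SE 0.13), a BMP co-receptor, and Tgfbr2 (0.54, SE 0.10), the type 2 TGF-beta receptor, as log2 fold changes with edgeR adjusted p between 0.00532 and 0.00951. Of 9 antagonists tested 4 rose: Chrdl1 (1.16, SE 0.34), Bambi (0.57, SE 0.12), Nbl1 (0.48, SE 0.12) and Twsg1 (0.31, SE 0.09). Of 8 Smads 3 rose, namely the inhibitory Smad6 (1.16, SE 0.19; edgeR adjusted p = 0.00245) and Smad7 (0.59, SE 0.13) and the BMP-regulated Smad9 (0.93, SE 0.27). Among 11 ligands Tgfb2 rose (0.64, SE 0.18), and among 7 targets Id1 fell (-1.03, SE 0.13). Smad6 was at 46.4, 43.8 and 35.6 CPM in P0 Figla knockouts, against 19.2, 23.5 and 13.8 CPM in controls, without overlap. It was at 8.49, 5.72 and 4.96 CPM in P0 Lhx8 knockouts, against 1.15, 2.22 and 3.60 CPM in controls, and was not called (edgeR adjusted p = 0.0552). The count of 14 was 7 without knockout replicate 2 or 3 and 9 without control replicate 3. Of the 13 genes named, 6 were called in all 6 fits that left out 1 sample: Acvrl1, Rgma, Tgfbr2, Bambi, Smad6 and Id1.

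In P0 Lhx8 knockouts 7 of the 40 pathway genes tested rose and 1 fell, or 20% against 10.4% of all genes, with a median log2 fold change of 0.46. Over all genes, 468 rose and 1114 fell. The targets Id3 (1.57, SE 0.24), Id1 (1.52, SE 0.21) and Skil (0.76, SE 0.19) rose, of 6 tested, as log2 fold changes. Id3, like Id1 an inhibitor of basic helix-loop-helix proteins, was at 391.9, 254.9 and 201.2 CPM in Lhx8 knockouts, against 85.1, 118.2 and 82.0 CPM in controls, without overlap (edgeR adjusted p = 0.00293). In the Figla set at P0 it was at 138.6, 132.0 and 126.8 CPM in knockouts, against 124.3, 106.9 and 76.9 CPM in controls, and was not called (edgeR adjusted p = 0.135). The receptors Acvr1 (1.32, SE 0.37) and Acvrl1 (0.81, SE 0.18) rose, of 12 tested, and the antagonists Bambi (1.46, SE 0.34) and Nbl1 (0.53, SE 0.15) rose, of 7 tested. Smad3, a transducer of activin and TGF-beta signals, fell (-0.81, SE 0.14, edgeR adjusted p = 0.00572). Of 7 ligands 0 were called, and 3 had an unadjusted p under 0.05, as did 4242 of all 15274 genes. The count of 8 was 3 without control replicate 1 or 2 and 5 without control replicate 3, and Smad3, Id3 and Id1 were called in all 6 fits that left out 1 sample. At E18.5 edgeR called 0 of 50 pathway genes, also without control replicate 3. There was 1 by unadjusted p under 0.05 (607 of all 16131 genes) and 0 by DESeq2 (78 of all genes).

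Id1, which encodes an inhibitor of basic helix-loop-helix proteins and responds to BMPs, lay on opposite sides in the 2 knockouts. It was at 46.6, 53.3 and 52.4 CPM in P0 Figla knockouts, against 120.4, 95.9 and 95.1 CPM in controls (edgeR adjusted p = 0.000385). In P0 Lhx8 knockouts it was at 410.3, 593.2 and 423.1 CPM, against 163.2, 210.9 and 123.2 CPM in controls (edgeR adjusted p = 0.00172). Neither pair of groups overlapped, and the difference between the knockouts was not tested because the sets differ in kit.

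**Figure D5:**
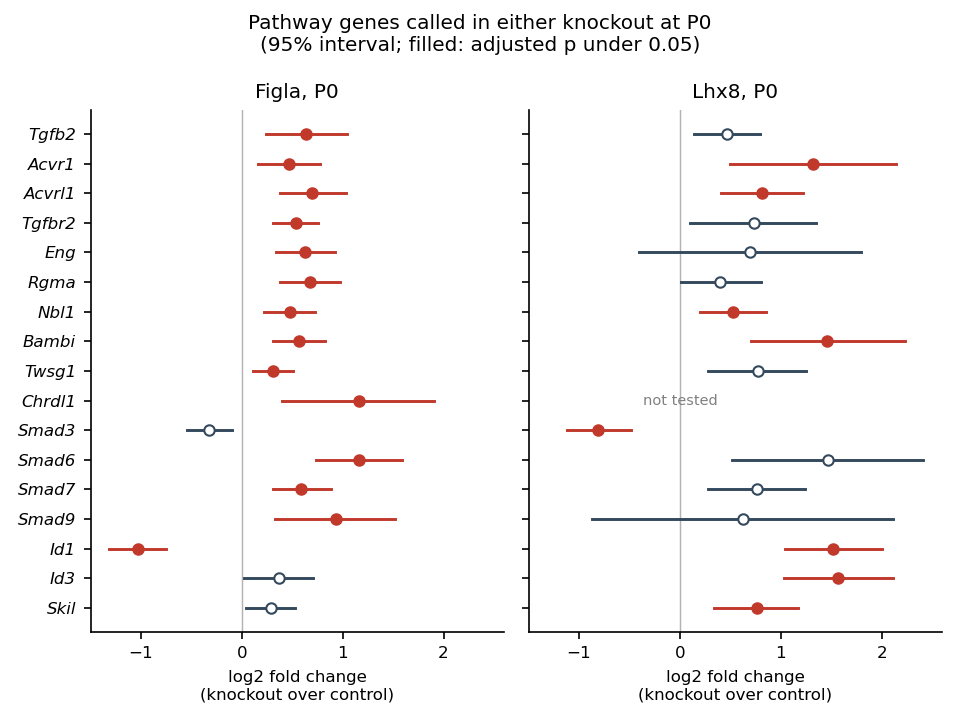
Log2 fold change of knockout over control (point) with its 95% interval (line) for the pathway genes called in either knockout at P0, Figla on the left and Lhx8 on the right, filled where the edgeR adjusted p was under 0.05. Id1 lies at -1.03 in the Figla knockout and at 1.52 in the Lhx8 knockout, and Smad6 lies at 1.16 in the Figla knockout.

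Markers of somatic cells also differed between groups at P0, and their part in the higher values of Fst, Inha, Amhr2 and the pathway genes was not tested. In Figla knockouts the summed level was 2438 to 2688 CPM for pregranulosa markers, against 1574 to 2132 CPM in controls (3 of 10 rose). It was 2434 to 2751 CPM for stroma, against 1655 to 2049 CPM (4 of 6 rose), and 422.6 to 484.5 CPM for endothelium, against 248.8 to 355.9 CPM (4 of 5 rose). Steroidogenic markers were at 126.5 to 151.5 CPM in Figla knockouts, against 89.6 to 99.1 CPM in controls (1 of 5 rose), and macrophage markers at 54.6 to 69.3 CPM, against 39.5 to 46.4 CPM (1 of 5 rose). In Lhx8 knockouts stroma markers were at 3124 to 3506 CPM, against 2095 to 2503 CPM in controls (2 of 6 rose), pregranulosa markers at 1893 to 2257 CPM, against 1628 to 1754 CPM (1 of 9 tested rose), and endothelial markers at 408.9 to 489.6 CPM, against 404.7 to 425.7 CPM (0 of 5 called). Steroidogenic and macrophage markers had 0 of 5 called in Lhx8 knockouts. Sertoli markers had 0 of 5 called in Figla knockouts and 1 of 5 higher in Lhx8 knockouts, surface epithelium markers had 0 of 4 and 1 of 4 higher, and erythroid markers had 0 of 4 and 0 of 2 tested. No gene of these lists was at 0 in a whole group, apart from Zp3. The pregranulosa factor gene Foxl2 had 0, 2 and 7 counts in Lhx8 knockouts and 1, 1 and 0 counts in their controls. It was thus almost uncounted in the Lhx8 set, while it was at 117.1 to 151.3 CPM in the Figla set at P0, made with another kit. Foxl2 is among the pregranulosa markers summed above. The cause of the low Foxl2 counts was not tested.

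As a description over the 12 Figla samples, the genes most alike in pattern, by Pearson r of log2 CPM among 18379 genes, were Gm8801 (0.986), G3bp2 (0.981) and Med27 (0.980) for Gdf9, and Tesc (0.970), Slc30a3 (0.953) and Ppif (0.953) for Bmp15. For Inha they were Cx3cl1 (0.948), C130074G19Rik (0.936) and Enah (0.921), and for Fst Gstm7 (0.971), Kdm3a (0.969) and Ccdc182 (0.962). These samples share 1 kit and fall into 4 groups, so the r values carry the differences between groups.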

How the data were processed

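RNA-seq was done on whole ovaries in 14 Figla-set and 6 Lhx8-set libraries. The authors deposited whole-number read counts for each gene, unnormalized, in a table for every library; 49326 of 49585 gene IDs have a symbol. Both sets used purified messenger RNA, per the labels' protocols. Figla-set libraries were built with Nextera, a kit that keeps no strand, and Lhx8-set libraries with QuantSeq 3' FWD, which reads transcript ends. Trimming with cutadapt and alignment by HISAT2 against GRCm38.p5 are named in the submitters' processing notes (versions: not given in the sources used here). The authors counted with featureCounts 1.6.0 on GENCODE M12, ignoring strand, per the file headers. No member overlaps another annotated gene. No molecular identifiers are recorded, so the Bmp15 count ratio, its interval and floors cover counting error only; other intervals come from the edgeR fits and include the spread between samples.

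Groups follow the library name; the title and genotype fields, which disagree with it, gave alternatives. At E18.5, libraries of a group that differed by a chi-square under 2 per degree of freedom (genes with at least 50 counts over both) were summed. edgeR 4.0.16 in R 4.3.3 was used on the counts (filterByExpr with minimum count 10 and minimum total 15, TMM, quasi-likelihood test, Benjamini-Hochberg adjustment over all genes tested, threshold 0.05, no minimum fold), with each knockout and its controls in a model of their own and age comparisons in 1 model of 12 Figla samples. Tests were checked on simulated data. DESeq2 1.42.0, RLE scaling, no filter, each sample left out in turn and other groupings were alternatives; those on the pathway genes and on the Gdf9 over Ddx4 ratio, leaving out both E18.5 samples numbered 3 and a Figla-set replicate block, were chosen after seeing the data. Named were all 10 members, Amh, up to 4 called genes per pathway list and comparison with the largest log2 fold change, and the 3 genes most alike to Gdf9, Bmp15, Inha and Fst (log2 CPM, prior count 2). Members and lists were chosen with earlier results of these data known.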

Additional observations from a re-analysis of the deposited data

Results flagged for a closer look

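Id1 was called with opposite signs in the 2 knockouts at P0: the log2 fold change was -1.03 in Figla knockouts and 1.52 in Lhx8 knockouts. In the Figla set all 3 knockout samples lay below all 3 controls, and in the Lhx8 set all 3 lay above them. Both calls were kept in every fit that left out 1 sample, with ranges of -1.09 to -0.92 and of 1.32 to 1.73. The Figla call was lost in 1 model of all Figla samples (-1.03, edgeR adjusted p = 0.0512) and with groups by title (-0.39). The difference between the knockouts was not tested, since the sets were made with different kits and share no model.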

How the results depend on the processing

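Over 978 refits of single genes, 799 kept their direction and side of the threshold, 84 lost a call, 33 gained one and 62 changed sign. Members called in P0 Figla knockouts numbered 3, against 5 with no filter, 6 with DESeq2, 0 by title and 2 to 5 with 1 sample left out. In Lhx8 knockouts they numbered 1, against 4 with no filter, 3 with DESeq2 and 1 to 3 with 1 sample left out. At E18.5 there were 0, against 1 by title. For P0 over E18.5 in controls there were 0, against 2 with no filter, 1 with DESeq2 and 1 with each library as a sample. By title there were 2, and 0 to 1 with 1 sample left out. In knockouts there were 0 across ages, against 2 with no filter and 1 with DESeq2. The count in controls also differed with agreeing labels, but that fit left 1 control sample at E18.5, so its count is not given.

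All genes called at E18.5 numbered 1, against 229 with no filter, 78 with DESeq2, 34 with each library as a sample, 1093 by title, 1082 with agreeing labels, 18 without both samples numbered 3, 53 in 1 model of all Figla samples and 0 to 89 with 1 sample left out. At Figla P0 they numbered 2767, against 0 by title, 1835 with agreeing labels, 1363 in 1 model and 1423 to 2882 with 1 sample left out. For Lhx8 they numbered 1582, against 2682 with no filter and 630 to 1490 with 1 sample left out. Pathway genes called were 0 at E18.5, against 7 by title. At Figla P0 they were 14, against 0 by title, 8 with agreeing labels, 4 in 1 model and 7 to 14 with 1 sample left out. For Lhx8 they were 8, against 13 with no filter, 15 with DESeq2 and 3 to 8 with 1 sample left out. In 1 model, Fst at P0 was at 0.86 (edgeR adjusted p = 0.0502). With agreeing labels at P0, Gdf9 was at -2.12, Bmp15 at -2.10 and Fst at 0.48, all called. The cause was not tested for any of these.

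The Lhx8 replicate numbers do not pair the samples (correlation of deviations -0.154, 0.0471 and 0.0381). With them as a block, edgeR called 931 genes, 4 pathway genes and 1 member, with Gdf9 at -4.11 (adjusted p = 0.000503). Numbers of the Figla set follow the order of deposit and no label says what they share, so they give no pairing by design. Samples of the same number nevertheless deviated together, with correlations of 0.575, 0.525 and 0.259 at E18.5 and of 0.389, 0.288 and 0.392 at P0, and every sample correlated best with its own number, a hint from the data. With them as a replicate block, edgeR called 28 genes, 0 members and 0 pathway genes at E18.5 (Bmp2 0.69, adjusted p = 0.159; Fst 0.35, 0.459). At P0 it called 4680 genes, 23 pathway genes and 6 members, which added Bmp2 (0.0265), Amhr2 (0.0373) and Inha (0.0238) as adjusted p.

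Signs changed by title in the Lhx8 set by construction: Gdf9 4.06, Bmp2 -0.93, Bmpr1b -0.20, Amhr2 -0.22, Inha 0.051, Inhba -0.37, Inhbb 0.10, Fst -1.36, Acvr1 -1.32, Acvrl1 -0.81, Bambi -1.46, Nbl1 -0.53, Smad3 0.81, Id3 -1.57, Id1 -1.52 and Skil -0.76. At Figla P0 by title they changed for Gdf9 0.28, Bmp2 -0.34, Amhr2 -0.092, Inha -0.092, Fst -0.23 and Smad9 -0.20. At E18.5 by title, which follows the replicate number, they changed for Bmp2 -1.33, Bmpr1b 0.0081, Inha -0.19, Fst -0.45 and Amh 0.91. Agreeing labels, which leave 1 control sample at E18.5, changed them for Bmp2 -0.57, Inha -0.037, Fst -0.047 and Amh 0.92. Without both samples numbered 3 the sign changed for Inhbb -0.0066. Across ages by title they changed for Inhbb in controls (-0.095), Bmp15 in knockouts (0.34, and 0.28 with agreeing labels) and the Gdf9 difference (0.39).

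With 1 sample left out, ranges that held both signs were, at E18.5, Bmp6 -0.19 to 0.53, Bmpr1b -0.19 to 0.053, Inha -0.087 to 0.27, Inhba -0.35 to 0.44, Inhbb -0.13 to 0.39 and Amh -0.82 to 0.082. At Figla P0 they were Bmp6 -0.034 to 0.14, Bmpr1b -0.16 to 0.066, Inhbb -0.017 to 0.37 and Amh -0.004 to 0.49. For Lhx8 they were Bmpr1b -0.14 to 0.65, Inha -0.22 to 0.14 and Inhbb -0.22 to 0.13. Across ages they were Inhbb -0.064 to 0.30 in controls, and Bmp15 -0.75 to 0.025 and Fst -0.33 to 0.10 in knockouts. Counts of Bmp15, Inhba and Amh set the precision of these genes.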
